A study of Mus musculus with 10 samples.

Results

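A set of 40 marker genes of blood vessel endothelium, the cells that line arteries, veins and capillaries, were followed in the regenerating mouse digit tip. They were chosen by name, from a list of endothelial junction proteins, receptors, secreted factors, transcription factors and signalling proteins. Earlier results of these data were known when the choice was made. Of the 40 names, 39 stood in the deposited table of 21729 protein-coding genes, and Adgrl4 was matched by its gene identifier because that table gives its older symbol, Eltd1. The 4 groups were ΔLARM1/2 mutants at 12 days post amputation (dpa) with 3 libraries, wild type at 12 dpa with 2, ΔLARM1/2 mutants at 14 dpa with 3, and wild type at 14 dpa with 2. The mutants lack LARM1 and LARM2, regulatory elements that drive Lmx1b in the limb, where this homeobox gene sets dorsal identity. All animals were of a mixed CD1 and C57Bl/6 background, aged 33 days at 12 dpa and 35 days at 14 dpa. Each library pooled blastema, the mass of proliferating cells that forms on an amputated digit tip, from 6 central hindlimb digits. Tissue was taken whole, so in these bulk libraries fewer endothelial cells and less RNA per endothelial cell cannot be told apart.

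Endothelial cells are held together by VE-cadherin and tight junction proteins, and they grow toward vascular endothelial growth factor (VEGF), which binds the receptor tyrosine kinases encoded by Kdr and Flt1. The angiopoietin receptor Tek and its partner Tie1 stabilize vessels, and ETS and SOXF transcription factors keep endothelial genes active. At the front of a vessel sprout, tip cells express Apln and Esm1, while capillaries behind it carry proteins of exchange such as Plvap and Gpihbp1. In the regrowing digit tip, new vessels form as bone and nail are rebuilt.

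Library totals lay between 69998104 and 101632364 expected counts, and all 40 genes passed the filter on low counts among 20216 genes tested. Lmx1b stood at 0.0278 to 0.336 CPM (counts scaled to the effective library size) in mutants, against 1.69 to 2.94 CPM in wild type. For mutant 14 dpa replicate 1 the genotype tag reads wild type, while the title and description make it mutant. Its Lmx1b level was 0.234 CPM, and it was treated as mutant. That library also stood apart in the endothelial genes: of the 39 genes other than Sox7 it was the lowest of all 10 libraries in 33. Protein-coding genes took 42.0% to 52.8% of the deposited TPM (a level corrected for transcript length) in mutants and 27.7% to 49.5% in wild type. Levels of different genes are therefore compared as TPM rescaled to the same total over the protein-coding table in every library (rescaled TPM) and single genes between groups mostly as CPM. Sums over gene lists are in rescaled TPM too, and on that scale the median log2 difference of all genes between mutants and wild type was 0.20 at 12 dpa and -0.19 at 14 dpa.

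Over both days 39 of the 40 endothelial genes fell in mutants and 1, Sox7, rose (edgeR's quasi-likelihood test, Benjamini-Hochberg adjusted p under 0.05 over all genes). Among all 20216 genes tested 22.2% were called lower and 21.6% higher, 43.8% in all. The median log2 fold change of the 40 genes was -1.78, against 0.02 over all genes, and 37 of the 39 fell by more than a log2 value of 1, as did 13.9% of all genes. In 38 genes every mutant library lay below every wild type library, which held for 15.9% of all genes; the exceptions were Vwf, where the genotypes overlapped, and Sox7. Esm1 passed the filter through its wild type libraries only, so the filter had already selected it for a difference. With the library that carries the wild type tag counted as wild type, 0 of the 40 genes passed by edgeR (adjusted p from 0.0652), 36 had an unadjusted p under 0.05, and the median was -1.44. In that setting edgeR called 0 of all genes tested, against 8846 otherwise, so the count is not particular to the endothelial genes. With that library left out, 38 fell and 1 rose. On the deposited TPM scale, where the median over all genes was 0.15 with a pseudocount of 1 and 78.4% of all calls were higher (49.3% in the counts), 38 fell and 1 rose.

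**Figure D1:**
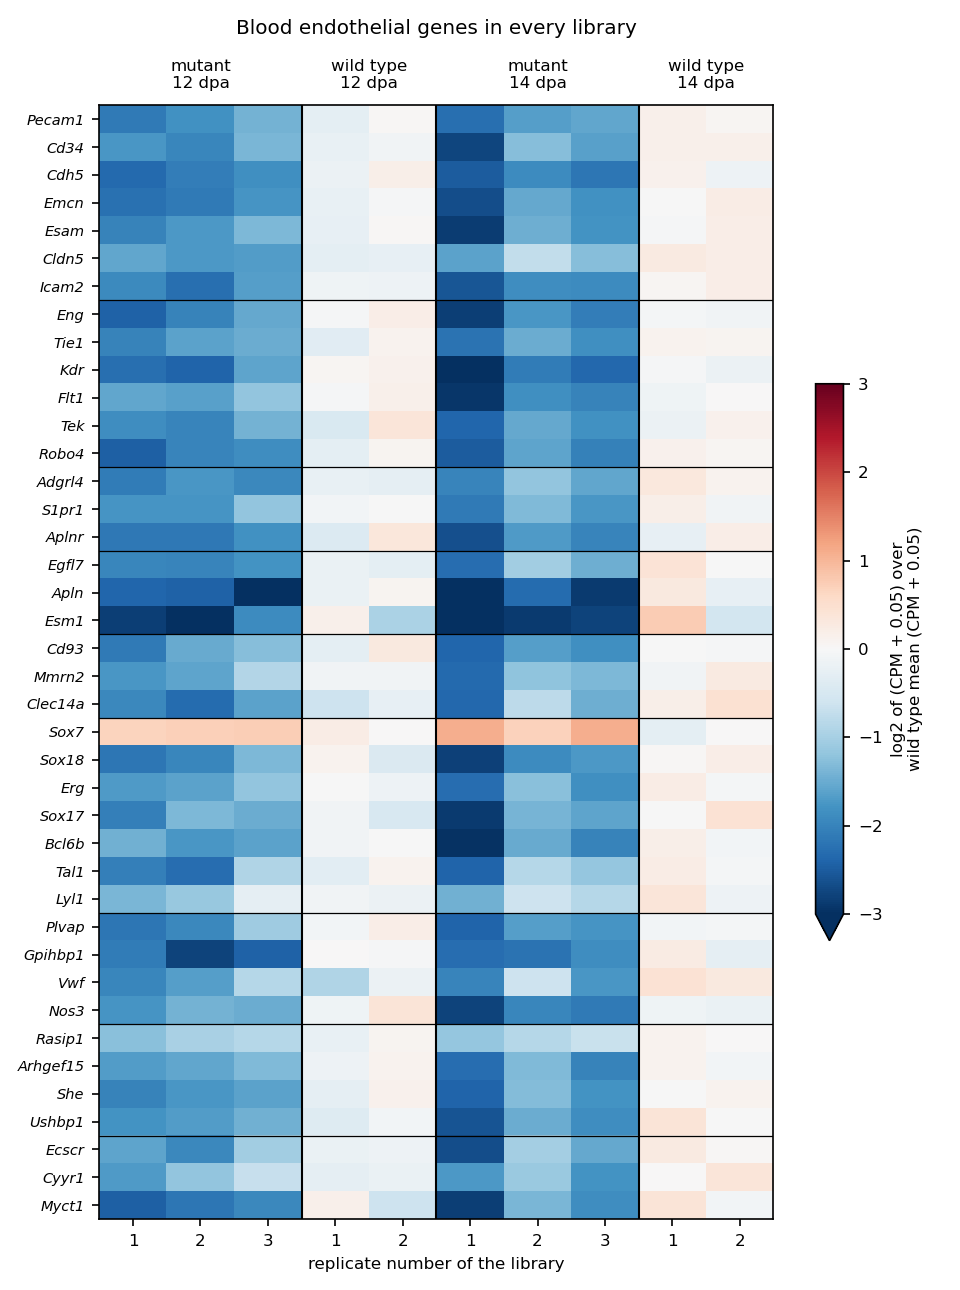
Level of each of the 40 endothelial genes (rows, grouped by role and split by lines) in each of the 10 libraries (columns, replicate numbers from the titles), as log2 of CPM plus 0.05 over the mean of the 4 wild type libraries. Values below -3 share the darkest blue. Rows are blue in all 6 mutant columns except Sox7, and the palest mutant cells are those of Lyl1, Vwf and Rasip1.

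The proximal promoters of several genes are shown because ETS factors, among them Erg, are known to bind endothelial promoters. Shared regulation of the 40 genes was not tested. RefSeq promoter entries on GRCm38.p6 were used for 22 of the 40 genes. Entries on the chromosome of Ecscr were left out for the 40 genes but kept among all genes, so the sets were not filtered alike. The 250 bases before each start were searched for AGGAAG, a common form of ETS site, on both strands. It was found in 13 of the 22 genes, or 59.1%, and in 31.5% of all 17492 protein-coding genes with an entry. The motif AACAAT, which SOX factors bind, was in 4 of the 22 genes against 9.68% of all genes. The motif AGATAA of the GATA family was in 3 of the 22 against 10.3% of all. The 3 motifs do not contain one another, and a match is a description of the sequence, not a bound site. Sequences of 5 promoters are given 5′ to 3′ with AGGAAG or its reverse complement in capitals. Eng and Flt1 are receptor genes with 2 matches each, Robo4 and Apln have 1 each, and Kdr, which fell as well, has no AGGAAG in this window. Other forms of ETS site were not searched for, in Kdr or elsewhere.
Eng (chr2:32646345-32646594, plus strand): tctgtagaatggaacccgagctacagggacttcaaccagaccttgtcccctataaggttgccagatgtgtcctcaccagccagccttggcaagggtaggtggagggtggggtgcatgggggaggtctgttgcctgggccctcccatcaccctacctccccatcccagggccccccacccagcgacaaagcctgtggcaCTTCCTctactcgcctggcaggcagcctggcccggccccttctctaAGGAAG
Flt1 (chr5:147726012-147726261, minus strand): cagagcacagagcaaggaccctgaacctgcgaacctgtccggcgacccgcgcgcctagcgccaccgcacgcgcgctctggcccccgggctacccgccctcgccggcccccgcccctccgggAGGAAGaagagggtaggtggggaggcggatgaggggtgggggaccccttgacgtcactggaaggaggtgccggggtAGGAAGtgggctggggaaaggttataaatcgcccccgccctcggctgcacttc
Robo4 (chr9:37401722-37401971, plus strand): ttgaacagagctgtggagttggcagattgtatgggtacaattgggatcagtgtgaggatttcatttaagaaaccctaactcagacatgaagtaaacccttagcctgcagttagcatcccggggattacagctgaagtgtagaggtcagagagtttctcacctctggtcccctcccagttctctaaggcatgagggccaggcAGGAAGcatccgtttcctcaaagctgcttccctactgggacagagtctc
Apln (chrX:48034854-48035103, minus strand): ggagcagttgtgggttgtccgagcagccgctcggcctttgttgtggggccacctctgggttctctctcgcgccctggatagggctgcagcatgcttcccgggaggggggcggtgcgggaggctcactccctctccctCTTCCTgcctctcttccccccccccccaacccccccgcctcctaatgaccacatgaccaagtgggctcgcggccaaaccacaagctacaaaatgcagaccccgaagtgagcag
Kdr (chr5:75978456-75978705, minus strand): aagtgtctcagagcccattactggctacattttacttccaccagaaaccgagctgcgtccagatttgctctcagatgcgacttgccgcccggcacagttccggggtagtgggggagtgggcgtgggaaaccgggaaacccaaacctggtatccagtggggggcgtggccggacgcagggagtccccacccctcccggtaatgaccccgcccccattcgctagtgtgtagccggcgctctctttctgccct

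All 7 junction and surface genes fell, with a median log2 fold change of -1.81. Pecam1 encodes CD31, an adhesion protein of endothelial contacts. Levels at 12 dpa were 13.1, 16.1 and 21.4 CPM in mutants, against 46.7 and 58 CPM in wild type. At 14 dpa the values were 11.8, 18 and 19.3 CPM in mutants, against 63.8 and 59.3 CPM in wild type. The wild type libraries were all well above the mutants and the groups did not overlap (log2 fold change -1.77, SE 0.17, adjusted p = 0.000133). Cd34, a sialomucin of capillaries that blood progenitors and some fibroblasts also carry, had 9.91, 8.62 and 12.9 CPM in mutants, against 28.4 and 31 CPM in wild type at 12 dpa. On the later day levels were 4.87, 13.8 and 10.8 CPM in mutants, against 37 and 37.2 CPM in wild type. Mutant replicate 1 was the low library on the second day, and the fall was 3.27-fold over both days (log2 fold change -1.71, SE 0.25, adjusted p = 0.0011). Cdh5, the VE-cadherin of adherens junctions, was 4.35-fold lower, with 9.19 to 14.4 CPM in mutants, against 46.1 to 59.2 CPM in wild type. Esam, a junction adhesion protein, ran from 1.35 to 3.92 CPM in mutants, against 8.42 to 11.6 CPM in wild type, and Emcn, the endomucin of capillaries and veins, from 2.2 to 4.86 CPM in mutants, against 12.1 to 16.7 CPM in wild type. Neither gene overlapped between genotypes. Of the last pair, Cldn5, the claudin of endothelial tight junctions, had the smallest fall of the 7 (log2 fold change -1.41, SE 0.18, adjusted p = 0.000451), and Icam2, a ligand of leukocyte integrins, fell by 2.08 on the log2 scale, with 0.352 to 0.705 CPM in mutants, against 2.11 to 2.7 CPM in wild type.

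All 6 growth factor and guidance receptors fell, between -1.75 for Tie1 and -2.26 for Kdr. Eng encodes endoglin, a co-receptor for BMP and TGF-beta ligands that stromal cells can also make. The 12 dpa libraries gave 7.69, 10.4 and 14.4 CPM in mutants, against 40.7 and 48 CPM in wild type. By 14 dpa the levels were 5.85, 12.4 and 9.86 CPM in mutants, against 39.8 and 38.7 CPM in wild type. The highest mutant library, replicate 3 at 12 dpa, was below the lowest wild type library (log2 fold change -2.05, SE 0.22, adjusted p = 0.000298). Tie1, the orphan partner of the angiopoietin receptor, had 6.12, 8 and 8.77 CPM in mutants, against 19.5 and 26.6 CPM in wild type at 12 dpa and 5.27, 8.67 and 6.87 CPM in mutants, against 26.3 and 26 CPM in wild type at 14 dpa. Its level was 3.37-fold lower over both days (log2 fold change -1.75, SE 0.16, adjusted p = 9.63e-05). The VEGF receptor genes Kdr, which carries most VEGF signalling in endothelium, and Flt1, which binds VEGF tightly and limits it, ranged as follows. Kdr ran from 3.53 to 11.2 CPM in mutants, against 29.8 to 37.1 CPM in wild type, and Flt1 from 3.61 to 12.3 CPM in mutants, against 25.5 to 30.7 CPM in wild type. Both were separate between genotypes. Tek, the angiopoietin receptor, changed by -1.81 on the log2 scale, with 2.54 to 5.07 CPM in mutants, against 9.85 to 17.5 CPM in wild type. Robo4, an endothelial roundabout receptor that stabilizes vessels, changed by -2.05, with 1.5 to 2.88 CPM in mutants, against 7.06 to 9.47 CPM in wild type.

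**Figure D2:**
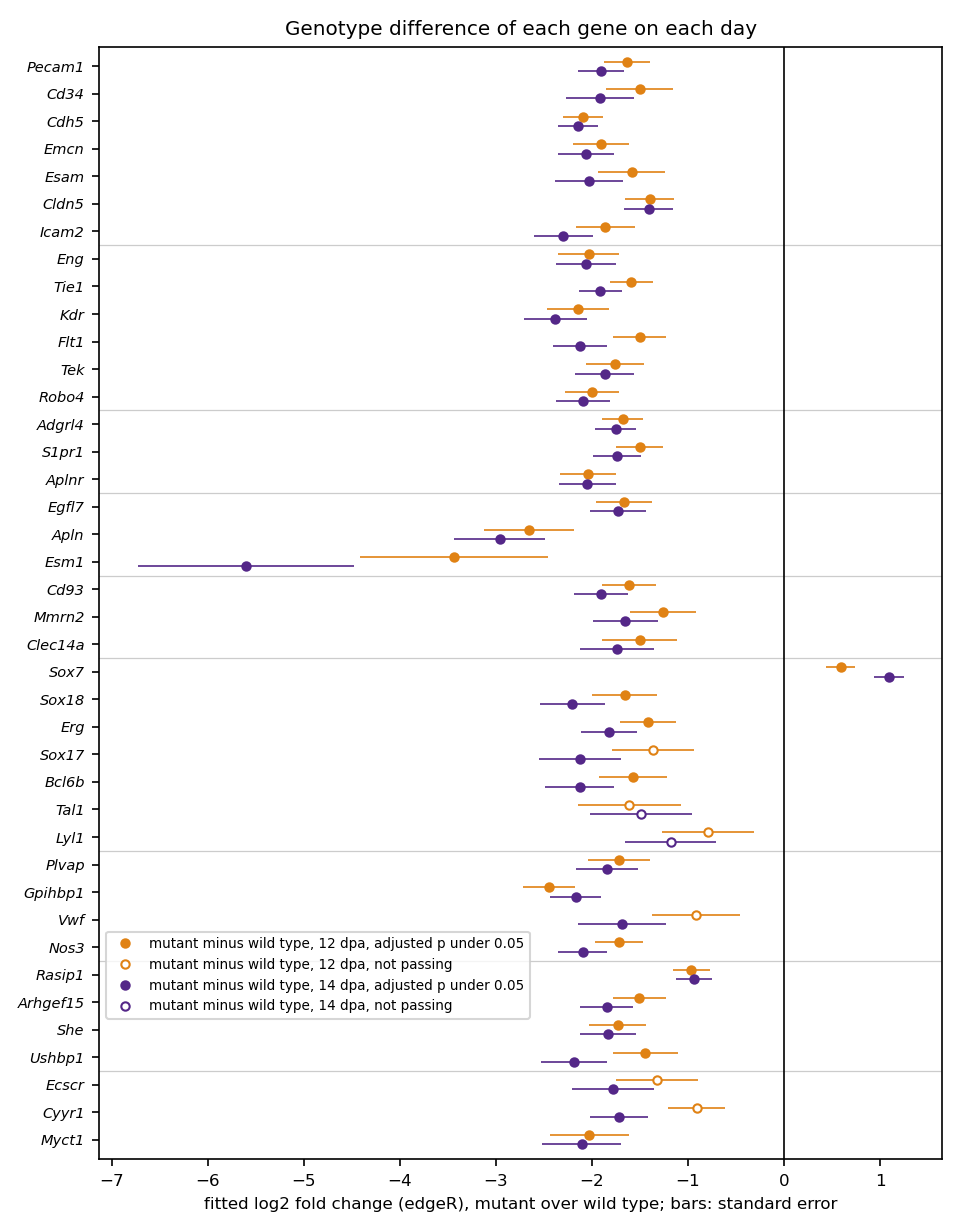
Fitted log2 fold change of mutants over wild type at 12 dpa and at 14 dpa for each of the 40 genes, with standard errors; open circles did not pass an adjusted p of 0.05. Most genes lie between -1 and -2.5 on both days, Esm1 and Apln lie lower, and Sox7 alone lies above 0.

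The 3 other receptors fell to a like degree. Adgrl4, an adhesion G protein-coupled receptor of endothelium, had 4.31, 5.51 and 4.88 CPM in mutants, against 15.9 and 15.5 CPM in wild type at 12 dpa. At 14 dpa levels came to 4.71, 8.22 and 6.32 CPM in mutants, against 23.3 and 19.997 CPM in wild type (log2 fold change -1.72, SE 0.15, adjusted p = 7.82e-05 over both days). The wild type libraries at 14 dpa were its highest. S1pr1, the receptor for sphingosine 1-phosphate that keeps sprouting in check, had 6.26, 6.2 and 9.42 CPM in mutants, against 20.2 and 21.1 CPM in wild type at 12 dpa. Its 14 dpa libraries held 4.9, 8.54 and 6.36 CPM in mutants, against 24.2 and 19.8 CPM in wild type, and the groups did not overlap (log2 fold change -1.62, SE 0.17, adjusted p = 0.000218). Aplnr, the receptor for apelin, ran from 4.21 to 8.07 CPM in mutants, against 19.9 to 33.3 CPM in wild type, a fall of 4.13-fold.

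Among the secreted factors Apln and Esm1 had the lowest fold changes of the 40 genes. Egfl7, a secreted matrix protein that guides vessel shape, had 3.72, 3.63 and 4.13 CPM in mutants, against 12.6 and 11.7 CPM in wild type at 12 dpa. At 14 dpa the values were 2.94, 7.02 and 5.22 CPM in mutants, against 19.2 and 14.4 CPM in wild type, with no overlap (log2 fold change -1.70, SE 0.21, adjusted p = 0.000396). Apln encodes apelin, the tip cell ligand of Aplnr. At 12 dpa it was measured at 3.24, 3.14 and 1.49 CPM in mutants, against 14.8 and 18.2 CPM in wild type. On the later day levels were 1.05, 3.44 and 2.32 CPM in mutants, against 21.1 and 14.4 CPM in wild type. The lowest mutant libraries were replicate 3 at 12 dpa and replicate 1 at 14 dpa, and the fall was 7-fold (log2 fold change -2.81, SE 0.33, adjusted p = 0.000463). Esm1, or endocan, a proteoglycan of tip cells, was near the limit of detection in mutants. It had 1, 0 and 6 counts in mutants, against 32 and 13 in wild type at 12 dpa. At 14 dpa it had 0, 1 and 1 counts in mutants, against 47 and 24 in wild type. Summed over the libraries of 14 dpa, the ratio of wild type over mutants was 53.5, with a 95% counting interval of 14.3 to 450.4 (exact binomial). The fitted value over both days was -4.52 (SE 0.75, adjusted p = 0.0015) and depends on the prior count.

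The group 14 C-type lectins Cd93 and Clec14a and their shared matrix ligand Mmrn2, which act together in sprouting, all fell. Cd93 stood at 16, 24.6 and 29 CPM in mutants, against 56.9 and 85.4 CPM in wild type at 12 dpa. By 14 dpa the levels were 13.5, 22.2 and 19.4 CPM in mutants, against 69.2 and 68 CPM in wild type (log2 fold change -1.76, SE 0.20, adjusted p = 0.000336). Cd93 had the highest CPM of the 39 genes that fell, and its groups stayed apart on both days. Mmrn2 had 3.55, 3.95 and 6.47 CPM in mutants, against 11.1 and 11.2 CPM in wild type at 12 dpa. Its 14 dpa libraries held 2.34, 5.14 and 4.71 CPM in mutants, against 11.2 and 14.4 CPM in wild type (log2 fold change -1.46), again with no overlap. Clec14a ran from 2.94 to 8.79 CPM in mutants, against 9.93 to 21 CPM in wild type (log2 fold change -1.62); its highest mutant library, replicate 2 at 14 dpa, came close to its lowest wild type library, replicate 1 at 12 dpa.

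**Figure D3:**
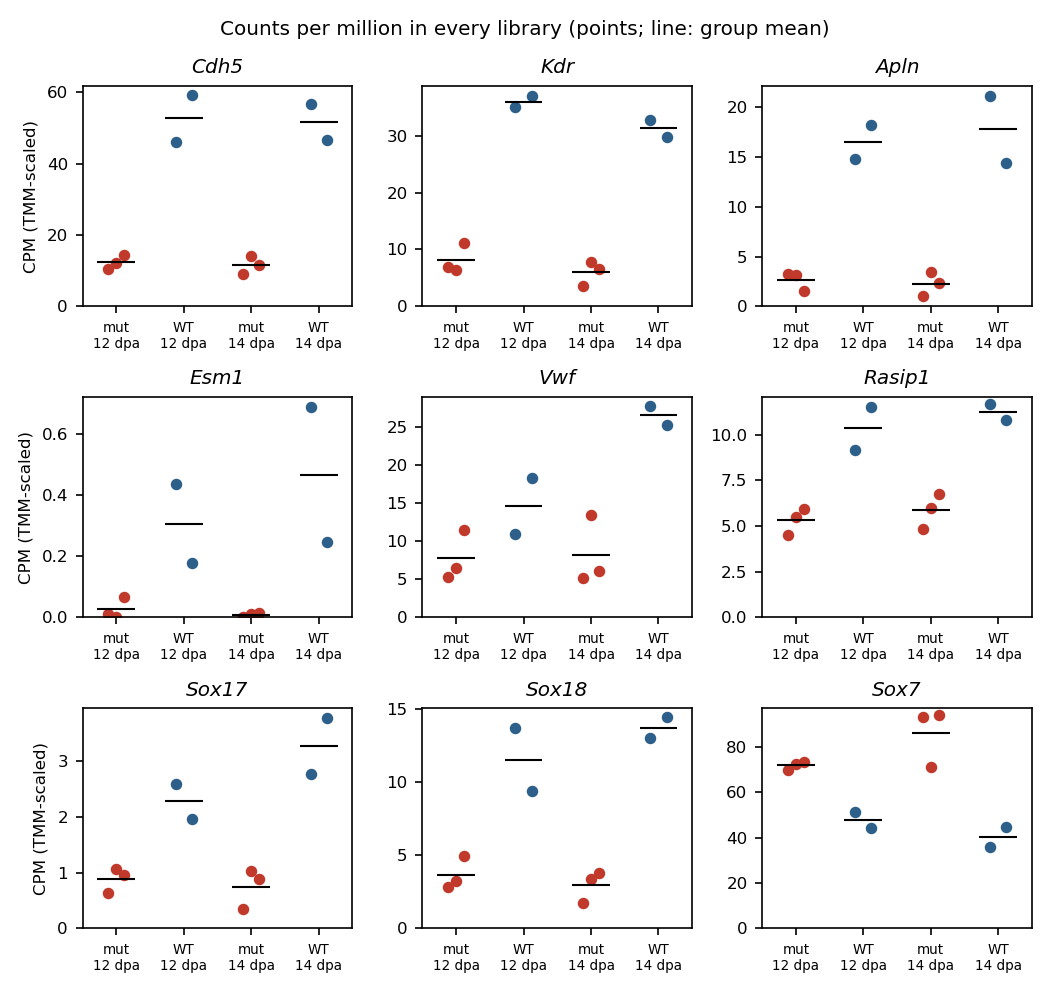
CPM of 9 endothelial genes in every library (points) with group means (lines), each panel starting at 0. Mutants (red) lie below wild type (blue) in every panel but that of Sox7, where they lie above, and that of Vwf, where replicate 3 at 12 dpa and replicate 2 at 14 dpa of the mutants reach the lowest wild type library, replicate 1 at 12 dpa.

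Of the 7 transcription factors, 6 fell and Sox7 rose. Sox18, a SOXF factor of vessel and lymphatic development, had 2.79, 3.2 and 4.95 CPM in mutants, against 13.7 and 9.39 CPM in wild type at 12 dpa. At 14 dpa levels came to 1.76, 3.39 and 3.78 CPM in mutants, against 13 and 14.4 CPM in wild type (log2 fold change -1.93, SE 0.24, adjusted p = 0.000441). Its relative Sox17, a factor of arterial identity, ran from 0.339 to 1.06 CPM in mutants, against 1.97 to 3.79 CPM in wild type (log2 fold change -1.75, SE 0.30, adjusted p = 0.00185); at 12 dpa alone it did not pass (adjusted p = 0.0547). Erg, the ETS factor that maintains endothelial identity, was 3.07-fold lower (log2 fold change -1.62, SE 0.21, adjusted p = 0.000451), with 1.6 to 3.47 CPM in mutants, against 7.17 to 9.31 CPM in wild type. Bcl6b, a zinc finger repressor, was 3.61-fold lower, with 0.547 to 1.64 CPM in mutants, against 4.28 to 5.15 CPM in wild type. Tal1 and Lyl1 encode paired helix-loop-helix factors that blood cells share with endothelium. Tal1 ran from 0.273 to 0.885 CPM in mutants, against 1.32 to 1.93 CPM in wild type (log2 fold change -1.55, SE 0.38, adjusted p = 0.00918). Lyl1 had the weakest call of the 40 genes (log2 fold change -0.98, SE 0.34, adjusted p = 0.0384), with 0.169 to 0.448 CPM in mutants, against 0.476 to 0.715 CPM in wild type; without any one of 7 of the 10 libraries its adjusted p lay between 0.0639 and 0.131. Neither passed on a single day. In the same libraries, among genes of blood progenitors, mast cells and megakaryocytes 0 of 10 tested fell and 2 rose. Over all genes tested 22.2% were called lower and 21.6% higher. The summed level of that list was 30.2 to 36.8 in mutants, against 20.6 to 32.2 in wild type (rescaled TPM). That sum rests on Gp1bb, a platelet receptor gene, at 17.9 to 27.5 in mutants, against 5.54 to 9.4 in wild type; without it the sum was 7.53 to 18.9 in mutants, against 11.2 to 26.7 in wild type. The median log2 fold change of the list was -0.28, and Gata1 was at 0 counts in every library.

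Sox7, the third SOXF gene, went the other way. Levels at 12 dpa were 69.8, 72.6 and 73.4 CPM in mutants, against 51.2 and 44.4 CPM in wild type. At 14 dpa the values were 93.1, 71.2 and 94.2 CPM in mutants, against 36.1 and 44.6 CPM in wild type. All 6 mutant libraries lay above all 4 wild type libraries; 18% of all genes had every mutant above every wild type library within each day (log2 fold change 0.84, SE 0.11, adjusted p = 0.000451). Per length it was also far above its relatives, at 44.1 ± 3.39 in mutants and 25.8 ± 3.57 in wild type (rescaled TPM, SD, n = 6 and 4), where Sox18 was at 4.22 ± 1.66 in mutants and 16.6 ± 4.17 in wild type. In wild type only Plvap, Pecam1, Cd34 and Egfl7 had higher means among the 40 genes, and in mutants none did. A keratinocyte list of 12 genes moved the same way as Sox7, with 9 higher and 0 lower. Of all genes 21.6% were called higher and 22.2% lower. The summed level of the list was 61440 to 98900 in mutants, against 29730 to 56550 in wild type (rescaled TPM). The part of other cell types in the Sox7 value was not tested.

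The 4 genes of capillary and vessel wall function fell. Plvap, which forms the diaphragms of fenestrated capillaries, was the most abundant of the 40 genes in wild type per length, at 13.7 ± 6.01 in mutants and 47.8 ± 4.09 in wild type (rescaled TPM). The 12 dpa libraries gave 10.3, 12.1 and 22.2 CPM in mutants, against 44.1 and 53.5 CPM in wild type. On the later day levels were 8.71, 14.8 and 13.7 CPM in mutants, against 44.1 and 44.7 CPM in wild type (log2 fold change -1.78, SE 0.23, adjusted p = 0.000633). Gpihbp1, which carries lipoprotein lipase to the capillary lumen, had 1.22, 0.737 and 0.962 CPM in mutants, against 5.44 and 5.18 CPM in wild type at 12 dpa. By 14 dpa the levels were 1.05, 1.1 and 1.43 CPM in mutants, against 6.35 and 4.43 CPM in wild type. Its fall of 4.95-fold was exceeded by Apln and Esm1 alone (log2 fold change -2.31, SE 0.19, adjusted p = 6.11e-05). Nos3, the endothelial nitric oxide synthase, ran from 1.51 to 3.95 CPM in mutants, against 9.31 to 14 CPM in wild type. Vwf, the von Willebrand factor stored for clotting, had 5.27, 6.53 and 11.4 CPM in mutants, against 10.9 and 18.3 CPM in wild type at 12 dpa, where it did not pass (adjusted p = 0.195). At 14 dpa levels came to 5.17, 13.4 and 6.05 CPM in mutants, against 27.8 and 25.3 CPM in wild type, and it fell (log2 fold change -1.69, SE 0.45, adjusted p = 0.0235). Over both days it changed by -1.3 on the log2 scale (adjusted p = 0.0115), and without wild type 12 dpa replicate 2 the adjusted p was 0.0519.

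Signalling adaptors fell, with Rasip1 the least. Rasip1, a Ras-interacting protein needed for vessel lumens, had 4.49, 5.48 and 5.95 CPM in mutants, against 9.2 and 11.5 CPM in wild type at 12 dpa. At 14 dpa the values were 4.84, 5.99 and 6.77 CPM in mutants, against 11.7 and 10.8 CPM in wild type. The groups did not overlap, and the difference was 1.94-fold (log2 fold change -0.95, SE 0.13, adjusted p = 0.000714), the smallest of the 39. Arhgef15, a guanine nucleotide exchange factor, had 2.27, 2.48 and 2.94 CPM in mutants, against 6.64 and 7.95 CPM in wild type at 12 dpa. Its later libraries held 1.48, 2.94 and 1.8 CPM in mutants, against 7.97 and 7.04 CPM in wild type, all mutants being lower (log2 fold change -1.68, SE 0.19, adjusted p = 0.000298). The SH2 adaptor gene She changed by -1.78, with 1.71 to 3.75 CPM in mutants, against 7.62 to 10.2 CPM in wild type. Ushbp1 changed by -1.82, with 0.365 to 0.873 CPM in mutants, against 1.85 to 3.21 CPM in wild type. The small membrane protein genes Ecscr, Myct1 and Cyyr1 fell by 1.55, 2.07 and 1.32 on the log2 scale. Ecscr, which modulates endothelial motility, had 1.41, 1.09 and 2.06 CPM in mutants, against 3.73 and 3.85 CPM in wild type at 12 dpa. Its later libraries held 0.638, 2.11 and 1.46 CPM in mutants, against 5.24 and 4.43 CPM in wild type. No mutant reached the lowest wild type library. Cyyr1 had 3.08, 4.42 and 6.3 CPM in mutants, against 8.41 and 8.9 CPM in wild type at 12 dpa. On the later day it had 3.02, 4.67 and 2.92 CPM in mutants, against 10.3 and 13.1 CPM in wild type, where mutant replicate 2 was the highest of the mutants. Myct1 ran from 0.638 to 1.83 CPM in mutants, against 3.09 to 6.27 CPM in wild type. Neither Ecscr nor Cyyr1 passed at 12 dpa (adjusted p = 0.0612 and 0.0639).

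By day, 33 genes fell and 1 rose at 12 dpa, and 37 fell and 1 rose at 14 dpa. Of all genes 9.33% fell and 7.18% rose at 12 dpa, and 17.2% fell and 16.1% rose at 14 dpa. Medians of the 40 genes were -1.61 at 12 dpa and -1.91 at 14 dpa, against 0.03 and -0.0023 over all genes. At 12 dpa Sox17, Tal1, Lyl1, Vwf, Ecscr and Cyyr1 did not pass, and at 14 dpa Tal1 and Lyl1 did not. Without wild type 12 dpa replicate 2, 16 of the 40 genes passed at 12 dpa, all lower, with a median of -1.47, and 771 of all genes passed, against 3338 otherwise. Sox7 lost its call at 12 dpa without mutant replicate 2 or 3, or wild type replicate 1 or 2, of that day. Tested directly, the genotype effect at 14 dpa differed from that at 12 dpa in 0 of the 40 genes, and for 0% of all genes, by edgeR. Of the 40 genes DESeq2 and limma-voom called 0 as well, while DESeq2 called 48 of all genes and limma-voom 0. Among the 40, 1 gene, Sox7, had an unadjusted p under 0.05 (0.0362). The estimate of that difference was negative for 36 of the 40 genes, with a median of -0.28 against -0.02 over all genes, and leaving out 1 library gave medians between -0.50 and -0.07. These bounds came from leaving out replicate 2 and replicate 1 of the 14 dpa mutants. With mutant 12 dpa replicate 3 left out the median was -0.11, with mutant 12 dpa replicate 1 left out it was -0.42, and with wild type 12 dpa replicate 1 left out it was -0.15.

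Within a genotype, 0 of the 40 genes passed between 14 and 12 dpa in mutants or in wild type by edgeR, and 0 by DESeq2 or limma-voom. Of all genes 0.0346% passed in mutants (0.0198% lower and 0.0148% higher) and 0% in wild type by edgeR, while DESeq2 called 1482 of all genes in mutants and 77 in wild type, and limma-voom 5 and 0. At an unadjusted p under 0.05 there were 2 endothelial genes in mutants and 0 in wild type. In wild type 30 of the 40 estimates were positive, with a median of 0.19, against 49.3% of all genes and a median of -0.0051. The endothelial median was 0.05 without wild type 12 dpa replicate 1. For 14 genes both libraries at 14 dpa lay above both at 12 dpa, or 35% against 20.1% of all genes. Vwf had the highest such estimate, with 27.8 and 25.3 CPM at 14 dpa and 10.9 and 18.3 CPM at 12 dpa (log2 fold change 0.86, adjusted p = 0.681). In mutants 27 of the 40 estimates were negative, with a median of -0.14, against -0.02 over all genes, of which 47.5% were positive. Leaving out a mutant library of 14 dpa moved this median to 0.10 for replicate 1 and to -0.39 for replicate 2. Leaving out a mutant library of 12 dpa moved it to -0.21 for replicate 1, -0.23 for replicate 2 and 0.07 for replicate 3.

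Summed over the 39 genes other than Sox7, the endothelial level was 71.2 to 186.1 in mutants, against 379.1 to 524.9 in wild type (rescaled TPM). Within mutants the libraries differed by more than 2 times, with replicate 1 the lowest and replicate 2 the highest at 14 dpa in nearly every gene: replicate 1 was the lowest of its group in 38 of 39 genes and replicate 2 the highest in 34. At 12 dpa replicate 3 was the highest of the mutants in 32 of 39. Mutant 14 dpa replicate 1 also had the lowest summed level of fibroblast and blastema genes, 888.6, and the highest of keratinocyte genes, 98900.

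To see how the genes varied relative to each other, each was divided by Cdh5 in the same library, in TPM. In 31 of the other 39 genes the ratios of mutants and wild type overlapped. In 8, Tie1, S1pr1, Cd93, Mmrn2, Erg, Sox7, Lyl1 and Rasip1, all mutant ratios lay above all wild type ratios, and in 0 genes below. Over all 15400 protein-coding genes tested, 83.8% lay above and 0.792% below. Cdh5 itself had a log2 fold change of -2.12, below the median of -1.78 of the 40 genes. Genes that fell less than Cdh5 therefore tend to have higher ratios in mutants by construction. The Rasip1 ratio was 0.524 to 0.737 in mutants, against 0.242 to 0.294 in wild type, and that of Erg was 0.343 to 0.438 in mutants, against 0.205 to 0.292 in wild type. For Cd93 the gap was narrow, with 0.851 to 1.17 in mutants, against 0.675 to 0.85 in wild type. Kdr gave 0.26 to 0.519 in mutants, against 0.37 to 0.49 in wild type, and Apln 0.132 to 0.393 in mutants, against 0.389 to 0.454 in wild type, so that apelin overlapped by a single mutant library.

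**Figure D4:**
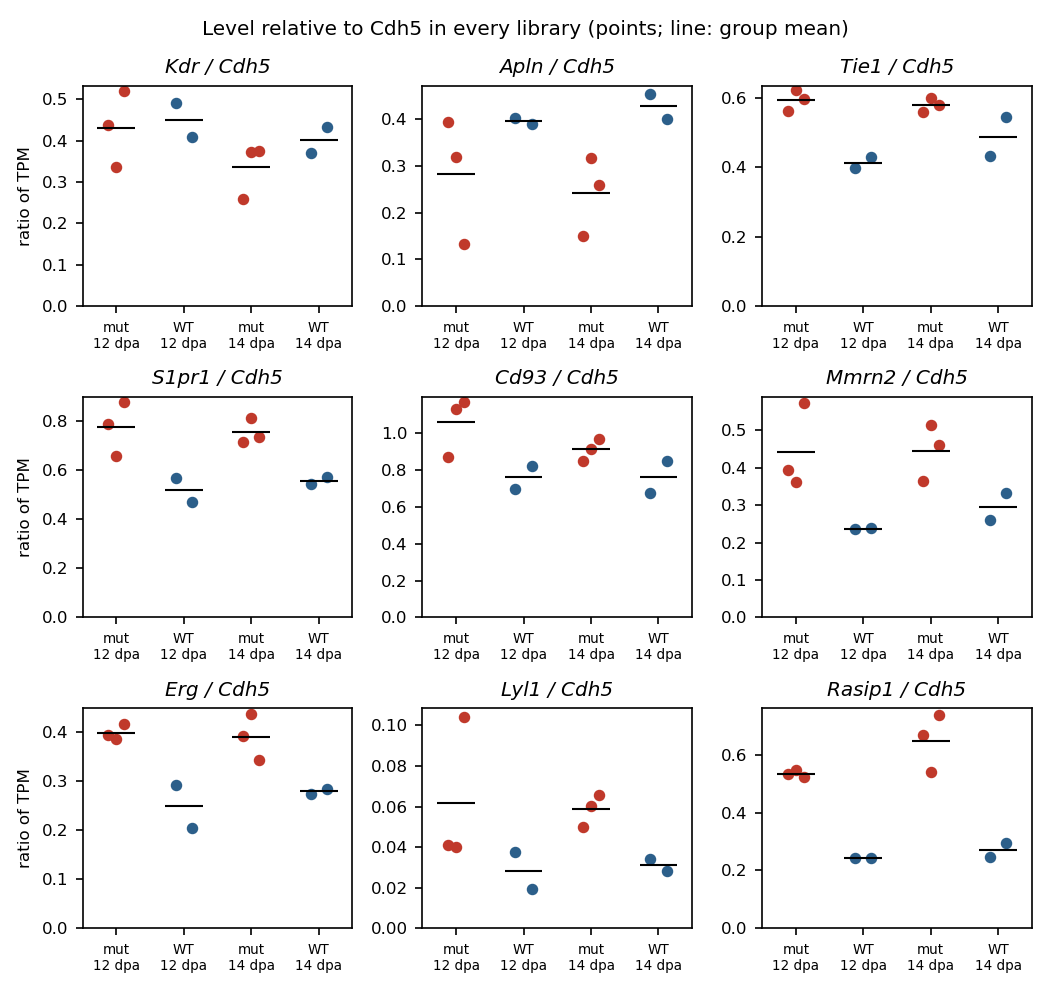
Ratio of the TPM of 9 endothelial genes to that of Cdh5 in every library (points) with group means (lines), each axis starting at 0. Kdr overlaps between genotypes, Apln is lower in 5 of 6 mutant libraries, and the other 7 ratios are higher in mutants (red) than in wild type (blue).

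Other vessel genes fell in part. Of 12 vascular growth factor ligands tested, 5 fell and 1 rose; Angpt1, the Tek ligand made by mural cells, stood at 1.4 ± 0.619 CPM in mutants (SD, n = 6) and 5.73 ± 1.11 CPM in wild type (SD, n = 4), and Vegfa, the main VEGF ligand, at 19.2 ± 4.53 CPM in mutants and 38.1 ± 14.4 CPM in wild type. Of 16 arterial and Notch pathway genes 11 fell and 1 rose, with a median of -1.41. The smallest adjusted p-values were those of Efnb2 (-0.88, adjusted p = 5.17e-05) and Nrp1 (-1.57, adjusted p = 7.09e-05). Of 10 venous and activation genes 4 fell, among them Nr2f2, the factor of venous identity (-1.3, adjusted p = 0.000307), and Tll1 (-1.93, adjusted p = 0.000181). Of 18 endothelial transcription factors outside the 40 genes 9 fell and 4 rose, with the ETS genes on both sides: Fli1 changed by -1.51 (adjusted p = 0.000576) and Ets2, which many cell types express, by 1.11 (adjusted p = 0.000834). Of 15 capillary and metabolism genes 7 fell and 2 rose, with Ptprb at -1.82 and Fabp4 at -3.78. These shares stand beside 22.2% of all genes called lower and 21.6% called higher.

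Genes of neighbouring cells gave mixed counts, which again stand beside 22.2% of all genes called lower and 21.6% called higher. Of 16 pericyte and smooth muscle genes 11 fell and 1 rose, with a median of -1.43, Mcam at -1.80 and Abcc9 at -1.52. Their summed level was 374 to 1004 in mutants, against 909 to 968 in wild type (rescaled TPM). That sum rests largely on Ndufa4l2, at 248 to 775 in mutants, against 483 to 581 in wild type. Of 9 lymphatic endothelial genes 6 fell and 1 rose, with a median of -2.00, Flt4 at -2.74 and Reln at -2.52. Their summed level was 112.5 to 157.2 in mutants, against 106.2 to 168.6 in wild type (rescaled TPM). Nfatc1 gave 23.4 to 64.1 of it in mutants, against 27.6 to 33.6 in wild type, so other genes of the list held most of it. Of 12 fibroblast and blastema genes 11 fell, with a summed level of 889 to 3739 in mutants, against 8090 to 11460 in wild type (rescaled TPM). Leukocyte and macrophage genes had 1 of 10 lower (Adgre1, -1.38), and their summed level was 66 to 342 in mutants, against 152 to 164 in wild type. Mutant 12 dpa replicate 3 alone set the upper end, at 342.3. The other mutant libraries ran from 66 to 117.9, below every wild type library. Among 12 cell cycle genes 0 passed by edgeR, and among 4 tested erythroid genes 0; both had 0 at an unadjusted p under 0.05, and 0 by DESeq2 or limma-voom. The part of the fibroblast, pericyte and keratinocyte shifts in the endothelial result was not tested.

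**Figure D5:**
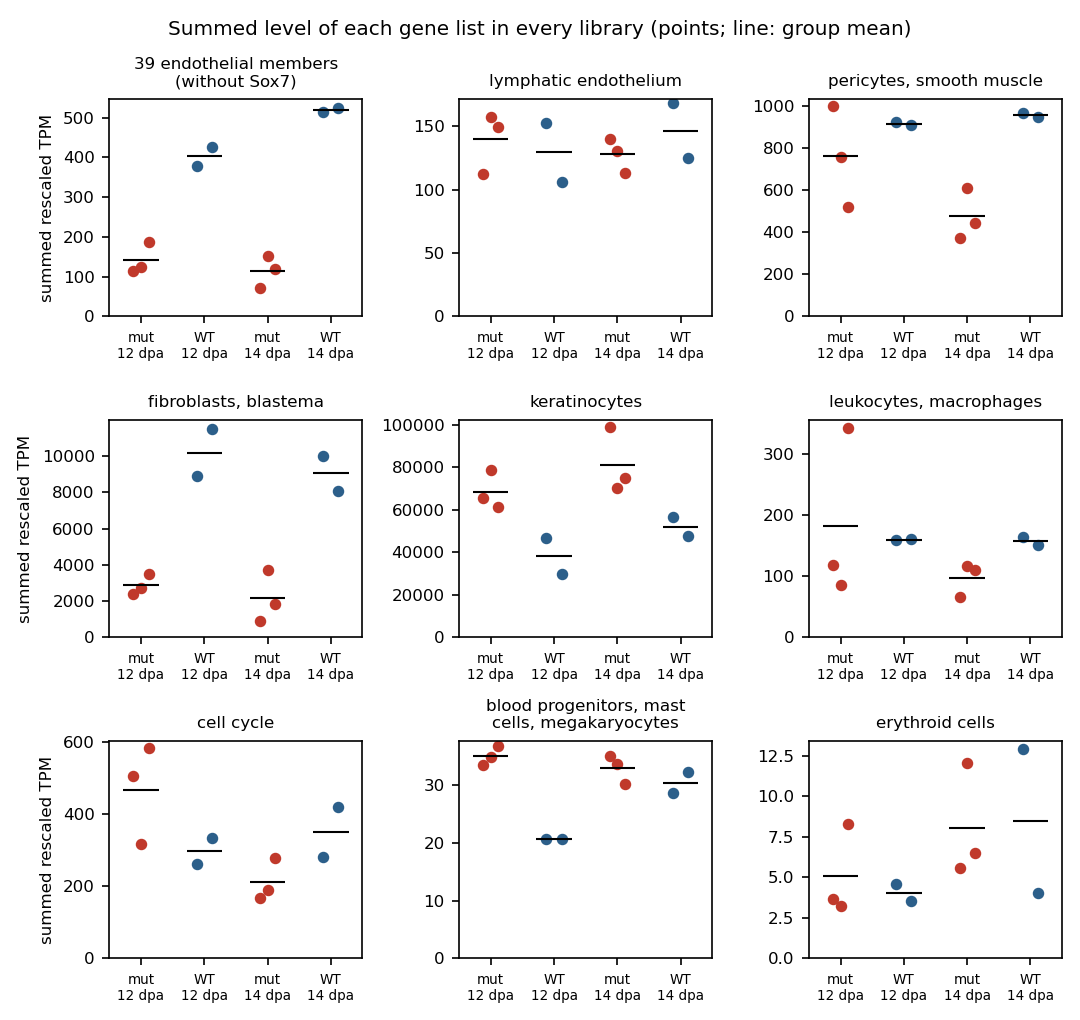
Summed rescaled TPM of 9 gene lists in every library (points) with group means (lines), each axis starting at 0. The endothelial sum and the fibroblast sum are lower in all mutant libraries (red) than in wild type (blue), the keratinocyte sum is higher, and the pericyte, lymphatic, leukocyte, cell cycle, blood progenitor and erythroid sums overlap. The leukocyte overlap rests on mutant 12 dpa replicate 3. A few abundant genes weigh most in a sum: gene by gene, 11 of 16 pericyte genes and 6 of 9 lymphatic genes fell, against 22.2% of all genes.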

How the data were processed

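RNA was sequenced from 10 libraries of pooled digit tip blastema. The authors deposited expected counts and TPM per gene in columns named as RSEM names them, per the file headers. FastQC, STAR 2.7.8a, RSEM 1.3.0 and GRCm39 are listed in the submitters' processing notes. The expected counts deposited by the authors are not normalized, and 13.9% are not whole. The TPM deposited by the authors are corrected for gene length and depth over 55416 genes. No source used here gives the strand setting.

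Expected counts were rounded and tested in R 4.3.3 with edgeR 4.0.16, and limma 3.58.1 for alternatives: filterByExpr (minimum count 10, minimum total 15), TMM factors, 1 robust quasi-likelihood fit of the 4 groups, Benjamini-Hochberg adjustment over 20216 genes, threshold 0.05. Adjusted p-values without another tool's name come from it. CPM use TMM-scaled library sizes. Groups and replicate numbers follow the titles; descriptions number the wild type 14 dpa libraries the other way round. The script was tested on simulated data. The labels do not say whether replicates are separate animals. By Y-linked counts each of the 4 groups held a female and a male library, so each drew on more than 1 animal. Whether libraries of the same sex are separate animals is not known. The p-values reflect library-to-library spread, which includes sex and may be technical in part. Genes and lists were chosen with earlier results of these data known. For each role the 2 genes highest in mean rescaled TPM, and any that differed from its role, were to be given by library; values beyond that were added after they were seen. Apela was not matched. Promoters come from RefSeq on GRCm38.p6. Alternatives were other scaling factors (DESeq2 1.42.0, upper quartile), filters (none, or 50 counts in 2 libraries), protein-coding genes only, DESeq2, limma-voom, limma-trend on TPM, a replicate block, sex as a covariate (male from 500 Y-linked counts), the genotype tag, and leaving out each library. Intervals cover counting error only.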

Additional observations from a re-analysis of the deposited data

How the results depend on the processing

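The 40 endothelial genes kept the sign of their log2 fold change over both days in every setting that gave a value. With the library of the contradictory tag counted as wild type, edgeR called 0 genes over both days, 0 at 12 dpa, 0 at 14 dpa and 0 of the 153 tested genes of the other lists (86 otherwise); among all genes it called 0 in each of the 3 contrasts (8846, 3338 and 6725 otherwise), with 36, 31 and 4 of the 40 at an unadjusted p under 0.05 over both days, at 12 and at 14 dpa; fewer mutants and a mixed wild type group are part of that setting's construction. Leaving out 1 library gave 38 to 40 genes over both days, 16 to 37 at 12 dpa, 35 to 39 at 14 dpa, 75 to 93 of the other lists, and 0 for the day contrasts and their difference; the low value at 12 dpa was without wild type 12 dpa replicate 2, where all-gene calls were 771, and 23 passed without replicate 1, where they were 1510, each of which leaves a lone library assumed to vary like the other groups. Outside the tagged setting, Lyl1 and Vwf were the genes that lost their call over both days. Lyl1 lost it without a filter (adjusted p = 0.0507), with sex as a covariate (0.0514) and on deposited TPM (0.142 and 0.104). A setting chosen after seeing the data left out replicate 1 of both mutants and wild type at 14 dpa. That wild type library had 1292 Xist counts beside 12561 Y-linked counts, and the lowest share of TPM in protein-coding genes, 27.7%. With 1 wild type library left at 14 dpa, the log2 fold change over both days was -0.72 for Lyl1 and -1.14 for Vwf. The strict filter removed Esm1 and Lyl1. With the replicate block the counts were 40 over both days, 32 at 12 dpa and 39 at 14 dpa. With the wild type 14 dpa numbers of the descriptions they were 40, 34 and 39. Same-numbered libraries had correlations of -0.04 to 0.08 in their deviations from group means. By Y-linked counts, mutant and wild type replicates 1 were both female at 12 dpa and both male at 14 dpa. Replicates 2 were both male at 12 dpa and both female at 14 dpa. Whether the numbers mark a shared litter or collection was not tested. On TPM rescaled to protein-coding genes, also chosen after seeing the data, the counts were 40, 31 and 38, while 74.1% of all calls at 12 dpa and 20.7% at 14 dpa were higher (43.5% and 48.3% otherwise) and the all-gene medians were 0.20 and -0.19. Upper quartile factors gave 36.4% higher at 14 dpa, with 38 endothelial genes called. Groups of 2 and 3 libraries were too small to test for a library far from the others, and 0 of the 40 genes had a genotype effect that differed between days by edgeR. Esm1, Lyl1 and Tal1 had the fewest counts, and depth limits their values.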
